A study of Mus musculus with 6 samples.

Results

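The 10 late neutrophil granule genes Ngp, Ltf, Camp, Lcn2, S100a8, S100a9, Mmp8, Mmp9, Chil3 and Wfdc21 were followed in hematopoietic stem cells (HSCs), the self-renewing bone marrow cells from which all blood lineages arise. They were taken by name, as genes of the secondary and tertiary granules of maturing neutrophils, and all 10 were present among the 21851 genes measured. RNA-seq was run on 3 libraries of HSCs from mice exposed to ionizing radiation (IR) and 3 libraries of HSCs from control mice (Ctrl). The mice of both groups were wild type and matched for background, and the cells were sorted as lineage-negative, Sca-1-positive, c-Kit-positive, CD150-positive, Flt3-negative and CD48-negative. The sources used here give neither the dose, the interval between exposure and sorting, the age of the animals nor how many went into a library. The titles number the libraries as replicates without saying that they came from separate animals or pools, so p-values reflect only the variation among these libraries, which may be technical.

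Neutrophils fill their granules in sequence as they mature. Primary granules with myeloperoxidase and elastase form in promyelocytes, secondary granules with lactoferrin, cathelicidin and lipocalin-2 in myelocytes and metamyelocytes, and tertiary granules with gelatinase later still. In mice, the transcription factor encoded by Cebpe is needed for the secondary and tertiary sets. S100a8 and S100a9 encode the subunits of calprotectin, a calcium- and zinc-binding protein that fills the neutrophil cytosol rather than a granule.

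In libraries of irradiated HSCs most of these genes had lower RNA levels relative to the rest of the library, and Lcn2 had a higher one. Ngp, Camp, Ltf and S100a9 were lower by at least 2.05-fold, Chil3 and S100a8 were lower by less, and Wfdc21 was not called. Lcn2 alone of the 10 was higher, by 1.73-fold. Mmp8 and Mmp9 lay under 1 FPKM (fragment abundance scaled by transcript length and library depth) in every library. In bulk samples such as these, fewer cells carrying a transcript and less transcript per cell cannot be told apart.

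The test was limma on log2(FPKM + 1) with Benjamini-Hochberg adjustment over all 10281 genes that reached 1 FPKM in at least 3 libraries. A gene was called when its adjusted p was under 0.05, and log2 fold changes are IR minus Ctrl on this scale, which understates changes at low levels. Of the 10 genes 8 were tested. Among these 8, 6 were called lower, 1 was called higher and 1 was not called, where 28.9% of all genes tested were called lower, 25.8% higher and 54.7% in either direction. Ltf passed the filter through its 3 control libraries alone and so could only differ downwards. When the filter was dropped all 10 entered the fit, and 7 were called lower and 1 higher, against 23.5% and 19.7% of 15010 genes. The IR libraries lay below all Ctrl libraries for 7 of the 10 genes and above all of them for 1, where 29.3% and 25.1% of all genes did so in that unfiltered set. The median log2 fold change was -0.43 over the 10 genes and -0.01 over all genes of that set.

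Promoters are shown for the 3 genes of secondary granule proteins that lie on chromosome 9 with 1169653 bases between the outer 2, Camp and Ltf, which were lower, and for Lcn2, a gene of the same granules that was higher. They were picked with these directions known. RefSeq windows (GRCm38.p6) from 250 bases before to 50 bases after the start site were found for 8 of the 10 genes, all except Mmp9 and Wfdc21. Each is written 5′ to 3′ on the strand of its gene, with matches to 3 motifs in capitals. The motifs, searched on both strands, were TTNNGNAA for C/EBP factors, AGGAAG for PU.1 and the NF-kB consensus. The Lcn2 window lies wholly within the GENCODE span of the gene, 32384633 to 32388252, so its RefSeq start differs from the outermost GENCODE start.
Ngp, chr9:110419558-110419857, plus strand: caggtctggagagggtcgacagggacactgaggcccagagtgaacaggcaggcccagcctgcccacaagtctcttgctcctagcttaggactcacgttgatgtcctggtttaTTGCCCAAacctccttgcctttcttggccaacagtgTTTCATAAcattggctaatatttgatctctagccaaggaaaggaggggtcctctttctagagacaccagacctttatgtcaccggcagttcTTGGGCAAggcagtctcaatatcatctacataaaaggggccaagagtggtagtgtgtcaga
Camp, chr9:109849407-109849706, minus strand: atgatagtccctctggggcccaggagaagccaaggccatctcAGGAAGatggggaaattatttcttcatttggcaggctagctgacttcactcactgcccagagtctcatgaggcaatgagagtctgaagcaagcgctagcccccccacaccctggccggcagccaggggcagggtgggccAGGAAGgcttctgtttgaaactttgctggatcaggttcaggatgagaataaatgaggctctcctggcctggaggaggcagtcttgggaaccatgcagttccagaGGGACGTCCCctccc
Ltf, chr9:111019042-111019341, plus strand: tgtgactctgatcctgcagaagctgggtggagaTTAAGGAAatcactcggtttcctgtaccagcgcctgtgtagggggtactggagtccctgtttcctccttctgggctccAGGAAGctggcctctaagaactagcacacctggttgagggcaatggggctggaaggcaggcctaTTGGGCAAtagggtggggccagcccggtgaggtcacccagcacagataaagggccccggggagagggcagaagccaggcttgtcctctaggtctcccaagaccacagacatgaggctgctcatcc
Lcn2, chr2:32387690-32387989, minus strand: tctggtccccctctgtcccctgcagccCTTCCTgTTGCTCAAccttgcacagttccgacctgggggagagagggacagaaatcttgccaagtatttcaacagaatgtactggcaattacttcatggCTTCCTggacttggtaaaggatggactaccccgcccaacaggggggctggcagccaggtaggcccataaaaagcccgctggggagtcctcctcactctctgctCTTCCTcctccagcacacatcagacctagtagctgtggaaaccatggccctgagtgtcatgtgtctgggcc
The C/EBP letters matched at 3 places in the Ngp window, 2 in Ltf, 1 in Lcn2 and 0 in Camp, and 40.7% of 32851 mouse promoter windows of this length held at least 1 match. The PU.1 letters matched 0, 1, 3 and 2 times in Ngp, Ltf, Lcn2 and Camp, and 35.4% of all windows held a match. An NF-kB match was present in the Camp window and in none of the other windows shown, against 8.46% of all windows. It lay at positions 35 to 44 after the start site, in the transcribed part and not upstream. The adjoining C/EBP and PU.1 matches of Lcn2 are separated by a single base, and no matches overlapped in these 4 windows. In the windows not shown, the C/EBP letters matched 1, 2, 2 and 3 times in S100a8, S100a9, Mmp8 and Chil3. The PU.1 letters matched 2, 0, 1 and 1 times there, and the NF-kB letters 0 times in each. A link between motifs and direction was not tested.

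Ngp, neutrophilic granule protein, is a cathelicidin-related gene on chromosome 9 from 110419747 to 110423012 (GRCm38, plus strand). It had 2.78, 3.09 and 2.999 FPKM in IR libraries 1 to 3, against 8.21, 9.32 and 10.1 FPKM in Ctrl libraries 1 to 3. The highest IR value was thus far under the lowest Ctrl value. The mean was 2.96 ± 0.157 FPKM in IR and 9.21 ± 0.944 FPKM in Ctrl (SD, n = 3 each), a log2 fold change of -1.36 (SE 0.070, limma Benjamini-Hochberg adjusted p = 2.93e-07). This was the rank 11 fall of 10281 genes. Worked back from FPKM, transcript length and depth, the values rest on about 52.6 to 55.8 fragments per IR library and 148 to 185 fragments per Ctrl library.

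Camp encodes cathelicidin, the precursor of the antimicrobial peptide CRAMP, and lies 570129 bases from Ngp on chromosome 9 (109847379 to 109849617, minus strand). It had 2.01, 2.15 and 3.14 FPKM in IR libraries, against 5.985, 6.26 and 4.98 FPKM in Ctrl libraries. The groups did not overlap, although IR library 3 lay 29.1% above its group mean and Ctrl library 3 lay 13.3% under its own. The log2 fold change was -0.98 (SE 0.12, limma adjusted p = 6.84e-05), with about 24.0 to 34.1 fragments per IR library and 54.4 to 77.2 per Ctrl library.

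Ltf, which encodes lactoferrin, the iron-binding protein of secondary granules, lies 596258 bases beyond Ngp (111019271 to 111042767, plus strand). It had 0.716, 0.839 and 0.660 FPKM in IR libraries, against 1.65, 1.48 and 1.57 FPKM in Ctrl libraries. All IR values were under 1 FPKM and all Ctrl values over it. The mean in IR was 2.12-fold lower than in Ctrl (log2 fold change -0.56, SE 0.069, limma adjusted p = 8.64e-05), on about 26.0 to 34.0 fragments per IR library and 62.0 to 67.0 per Ctrl library.

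Lcn2 encodes lipocalin-2, also called NGAL, which starves bacteria of iron by binding their siderophores (chromosome 2, 32384633 to 32388252, minus strand). It had 22.0, 24.2 and 22.1 FPKM in IR libraries, against 12.6, 14.5 and 12.5 FPKM in Ctrl libraries. All IR libraries stood well above all Ctrl libraries, and replicate 2 was the highest of each group. The mean was 22.8 ± 1.24 FPKM in IR and 13.2 ± 1.11 FPKM in Ctrl (SD, n = 3 each; log2 fold change 0.74, SE 0.059, limma adjusted p = 5.05e-06). It was the rank 48 rise of 10281 genes, and its 95% interval of 0.61 to 0.87 lies opposite that of Ngp, -1.52 to -1.21. Its transcript is also known from many non-myeloid cells under inflammation.

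**Figure D1:**
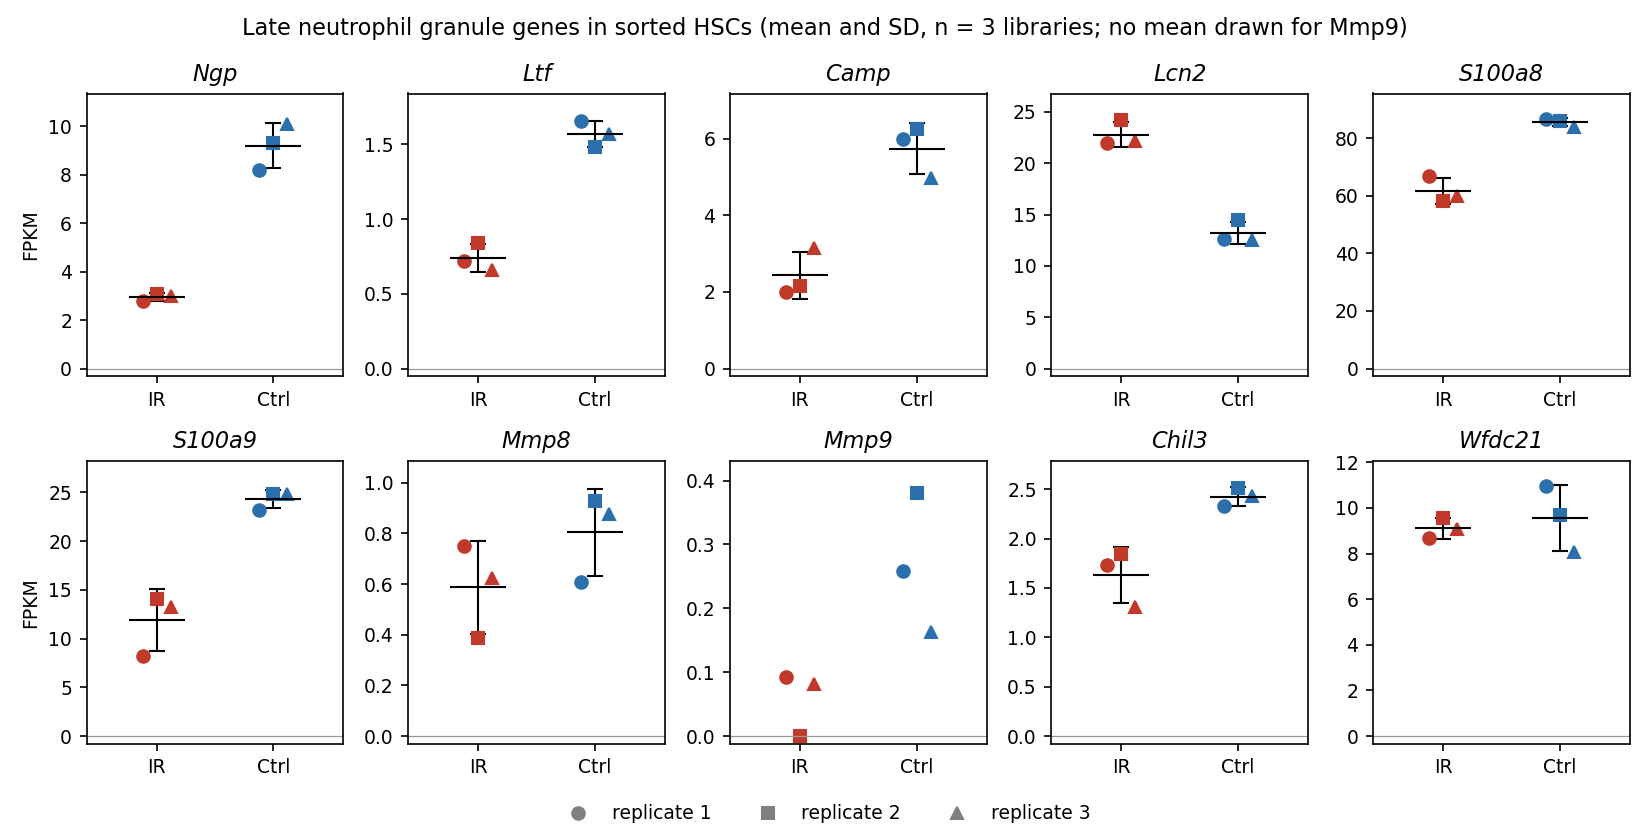
FPKM of the 10 late granule genes in each library, IR left of Ctrl, with the mean and SD of 3 libraries as black lines (none for Mmp9, which is listed at 0 in 1 library) and the marker shape giving the replicate number. The groups are apart in 8 panels and overlap in those of Mmp8 and Wfdc21, and Lcn2 is the panel in which IR is higher.

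S100a8 and S100a9 lie 22596 bases apart on chromosome 3 and are read from opposite strands. S100a8 (90668978 to 90670035) was the most abundant of the 10 genes per length in every library, at 66.8, 58.3 and 60.0 FPKM in IR libraries, against 86.8, 85.9 and 84.0 FPKM in Ctrl libraries. The Ctrl libraries lay close together and all above the IR libraries, and the IR mean was 1.39-fold lower (log2 fold change -0.47, SE 0.044, limma adjusted p = 1.59e-05). S100a9 (90692632 to 90695721) had 8.22, 14.1 and 13.3 FPKM in IR libraries, against 23.2, 24.9 and 24.9 FPKM in Ctrl libraries. Its groups were also apart, but IR library 1 lay 30.7% under the IR mean, whereas the same library was the highest of the IR libraries for S100a8. The log2 fold change of S100a9 was -1.01 (SE 0.15, limma adjusted p = 2.54e-04) with all libraries and -0.79 (adjusted p = 3.11e-06) without IR library 1. The S100a8 to S100a9 ratio was 8.12, 4.15 and 4.52 in IR libraries and 3.735, 3.46 and 3.38 in Ctrl libraries, so that the partners were unequal in amount in both groups and more so in IR.

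Mmp8 and Mmp9 encode neutrophil collagenase of secondary granules and gelatinase B of tertiary granules. Mmp8 had 0.749, 0.386 and 0.625 FPKM in IR libraries, against 0.607, 0.927 and 0.876 FPKM in Ctrl libraries, and the groups overlapped. Without the low-value filter its log2 fold change was -0.19 (95% interval -0.43 to 0.06, limma adjusted p = 0.183). Mmp9 had 0.0932 FPKM in IR library 1, was listed at 0 in IR library 2 and had 0.0820 FPKM in IR library 3, against 0.259, 0.380 and 0.163 FPKM in Ctrl libraries. The IR values were all lower, with about 0.0 to 4.7 fragments per IR library and 7.5 to 19.6 per Ctrl library, so counting error is large. The unfiltered fit called it (log2 fold change -0.26, limma adjusted p = 0.0182).

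Chil3 encodes Ym1, a chitinase-like lectin of neutrophil precursors and macrophages (chromosome 3, 106147554 to 106167564). It had 1.73, 1.85 and 1.31 FPKM in IR libraries, against 2.33, 2.52 and 2.43 FPKM in Ctrl libraries. The groups did not overlap, and the IR mean was 1.49-fold lower (log2 fold change -0.39, SE 0.081, limma adjusted p = 0.0025). Its close relative Chil4, with which it can share reads, was listed at 0 in all 6 libraries. Wfdc21, a small gene of the whey acidic protein family on chromosome 11 (83746940 to 83752642), had 8.68, 9.58 and 9.06 FPKM in IR libraries, against 10.96, 9.68 and 8.07 FPKM in Ctrl libraries. The IR values lay inside the Ctrl range, and the log2 fold change of -0.06 had a 95% interval of -0.25 to 0.13 (limma adjusted p = 0.597).

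**Figure D2:**
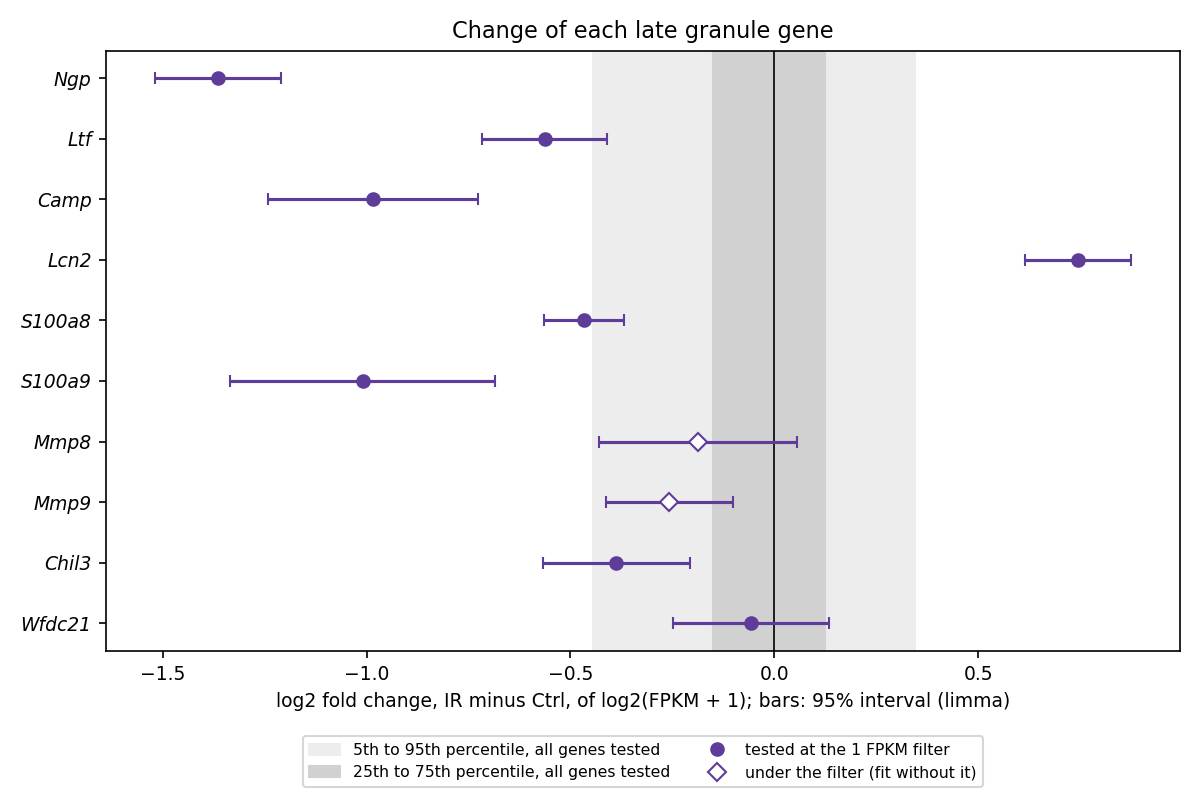
Log2 fold change (IR minus Ctrl, on log2(FPKM + 1)) of each of the 10 genes with its 95% interval from limma, beside the middle 50% (dark grey) and middle 90% (light grey) of all 10281 genes tested. Ngp at -1.36 and Lcn2 at 0.74 lie farthest to each side, and open diamonds mark Mmp8 and Mmp9, which were under the filter.

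The order of levels per length changed with the group. In IR libraries S100a8 was highest, followed by Lcn2, S100a9, Wfdc21, Ngp, Camp, Chil3, Ltf, Mmp8 and Mmp9. In Ctrl libraries S100a9 stood above Lcn2 and the rest of the order was the same by mean, except that Wfdc21 and Ngp had overlapping values there. The values of S100a9 and Wfdc21, Ngp and Camp, and Ltf and Mmp8 overlapped in IR libraries. The summed level of the 10 genes was 113.7, 114.5 and 113.3 FPKM in IR libraries, against 152.6, 155.9 and 149.6 FPKM in Ctrl libraries. Without S100a8 and S100a9 the sums overlapped, at 38.75, 42.1 and 40.01 FPKM in IR libraries and 42.6, 45.05 and 40.7 FPKM in Ctrl libraries; these sums include the higher Lcn2.

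Within single libraries, the genes of the secondary granule therefore stood in different proportions in the groups. The Lcn2 to Ngp ratio was 7.90, 7.83 and 7.38 in IR libraries, against 1.535, 1.55 and 1.24 in Ctrl libraries. The Lcn2 to Ltf ratio was 30.7, 28.8 and 33.5 in IR libraries, against 7.63, 9.79 and 7.98 in Ctrl libraries. The Ngp to Camp ratio, by contrast, was 1.385, 1.44 and 0.955 in IR libraries and 1.37, 1.49 and 2.03 in Ctrl libraries, and these ranges overlap. These ratios were computed after the values of the genes were seen and carry no test. A ratio within a library does not depend on how the library was scaled.

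**Figure D3:**
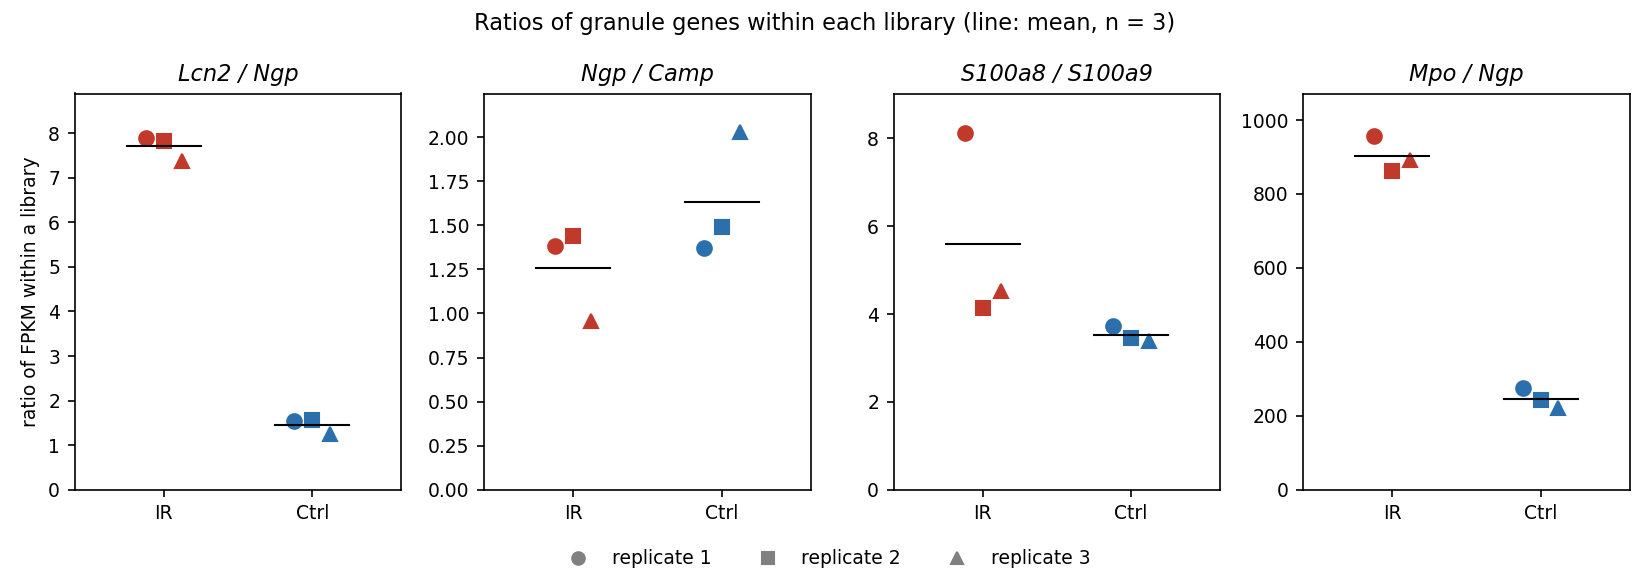
Ratios of FPKM within each library for 4 pairs of granule genes, IR left of Ctrl, with the mean of 3 libraries as a line and the marker shape giving the replicate number. Lcn2 to Ngp and Mpo to Ngp are higher in all IR libraries, Ngp to Camp overlaps between the groups, and IR library 1 stands apart at 8.12 for S100a8 to S100a9.

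Other genes of late neutrophil maturation were mixed. Of 39 listed 23 were tested, and 3 were called higher, 10 lower and 10 neither, their median log2 fold change being -0.06 against -0.01 over all genes. The shares over all genes tested were 25.8% higher and 28.9% lower. Those with the smallest p were Slpi, a secreted protease inhibitor (-0.95), Itgam, the integrin chain CD11b (-0.91), AA467197 (-1.56) and Lyz2, a lysozyme (-0.22). AA467197 had 2.99, 2.63 and 2.39 FPKM in IR libraries, against 11.2, 8.94 and 9.501 FPKM in Ctrl libraries. Retnlg, a resistin-like gene of neutrophils named after its value was seen, had 0.834, 0.779 and 0.573 FPKM in IR libraries, against 3.34, 3.54 and 2.17 FPKM in Ctrl libraries, and passed the filter through Ctrl alone. The risers, named after their values were seen, were Padi4, the enzyme that citrullinates histones in neutrophils (0.295), Csf3r, the G-CSF receptor (0.25), and Hp, haptoglobin (0.14).

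Primary granule genes mostly ran the other way. Of 17 listed 16 were tested, and 11 were called higher, 2 lower and 3 not called, with a median of 0.13. Among all genes tested 25.8% were called higher and 28.9% lower. Mpo, myeloperoxidase, had 2660, 2660 and 2674 FPKM in IR libraries, against 2261, 2254 and 2243 FPKM in Ctrl libraries. Ms4a3, a membrane protein of granulocyte progenitors, rose by 0.42 on the log2 scale, Elane, neutrophil elastase, by 0.38, Nkg7, a protein of cytotoxic granules, by 0.28, Ctsg, cathepsin G, by 0.19 and Prtn3, proteinase 3, by 0.09. The Mpo to Ngp ratio was 955.8, 861 and 891.5 in IR libraries, against 275.2, 242 and 222 in Ctrl libraries.

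Of 17 listed regulators of granule genes 14 were tested, and 4 were called higher, 5 lower and 5 not called, with a median of -0.06. These shares are near the 25.8% higher and 28.9% lower of all genes tested. Cebpe had 12.6, 12.7 and 12.5 FPKM in IR libraries, against 8.47, 6.70 and 8.905 FPKM in Ctrl libraries, a log2 fold change of 0.60 (SE 0.080, limma adjusted p = 1.43e-04). It was thus higher in all IR libraries, as were Cebpa (0.26) and Csf3r. Cebpd (-0.29), Cebpb (-0.23), Spi1, which encodes PU.1 (-0.20), and Irf8, a factor of monocytes and dendritic cells (-0.45), were lower. Gfi1, a repressor needed for neutrophil formation in mice, was not called at -0.04, and Klf5 was under the filter with 0.843, 0.862 and 1.53 FPKM in IR libraries, against 0.900, 0.854 and 0.883 FPKM in Ctrl libraries.

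**Figure D4:**
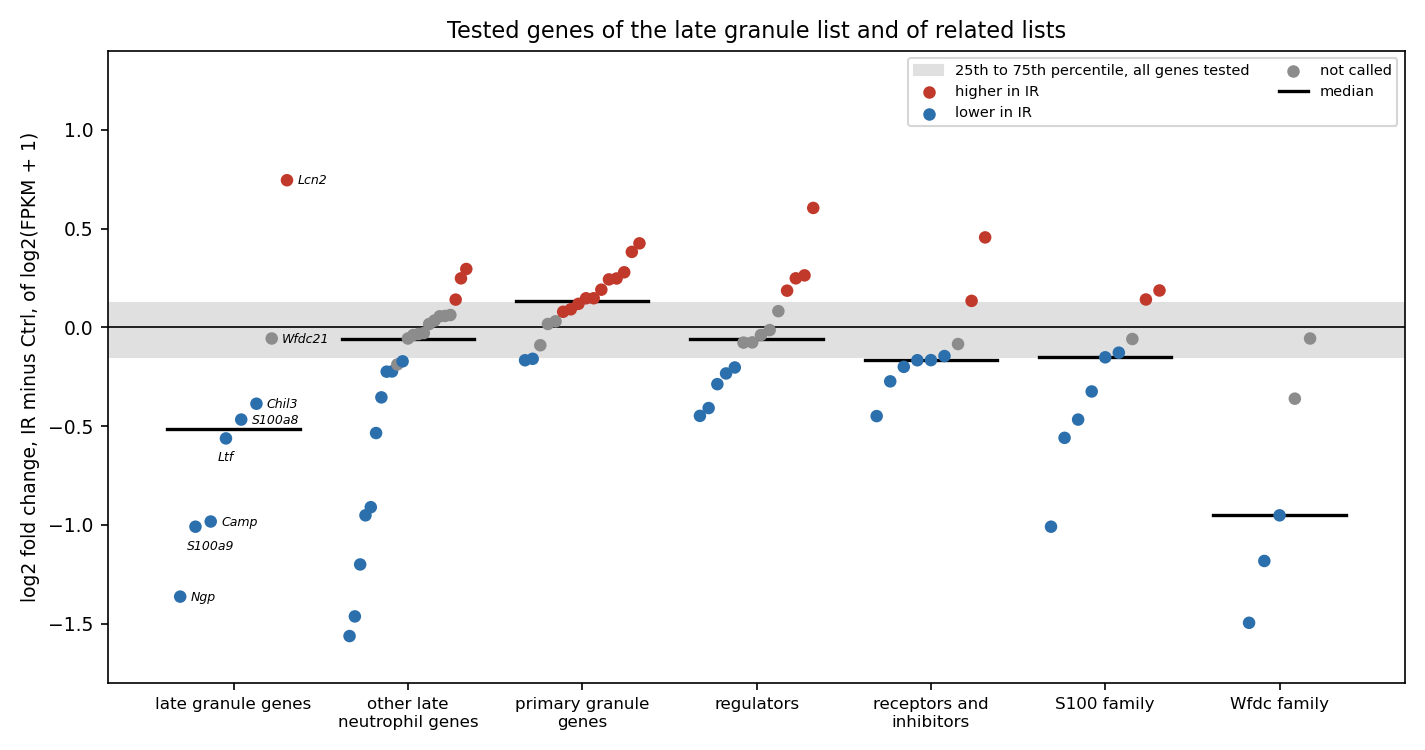
Log2 fold changes (IR minus Ctrl, on log2(FPKM + 1)) of the tested genes of the late granule list and of 6 related lists, coloured by call, with the median of each list as a bar and the middle 50% of all genes tested in grey. The late granule genes other than Lcn2 and Wfdc21 lie under the grey band, and the highest primary granule genes lie above it. Genes that stand in several lists are drawn in each.

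Receptors and inhibitors of the granule proteins were mostly lower by small amounts: of 15 listed 9 were tested, with 2 higher, 6 lower and 1 not called (median -0.17). These counts, and those of the S100 family below, stand beside 25.8% higher and 28.9% lower of all genes tested. The smallest p were those of the surface antigen Cd69 (-0.27), the serine protease inhibitor Serpinb1a (-0.17), the S100a9 receptor basigin, Bsg (0.13), and the metalloproteinase inhibitor Timp3 (0.46). Tlr4, a receptor of calprotectin, was not called at -0.08 and Slc22a17, a receptor of lipocalin-2, fell by 0.20; both are named after their values were seen. In the S100 family 9 of 16 genes were tested, 2 higher and 6 lower, the calprotectin genes included (median -0.15). S100a4 (-0.56), S100a5 (-0.33), S100a10 (-0.15) and S100a11 (-0.13) also fell, S100a6 (0.19) and S100a1 (0.14) rose and S100a13 (-0.06) was not called.

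In the Wfdc family 5 of 17 genes were tested, with 0 higher and 3 lower (median -0.95). For this family and those that follow, the shares over all genes tested were again 25.8% higher and 28.9% lower. Wfdc17 had 247.9, 270.1 and 259.1 FPKM in IR libraries, against 576.3, 607.1 and 584.5 FPKM in Ctrl libraries (log2 fold change -1.18), and Wfdc18 fell by 1.496 and Slpi by 0.95. Wfdc21 and Wfdc2 (-0.36) were not called; close paralogs among these genes can share reads. Of the matrix metalloproteinase genes 4 of 23 were tested, of which Mmp11 (-0.62) and Mmp2 (-0.44) fell and Mmp14 (-0.08) and Mmp24 (-0.09) were not called (median -0.26). Of the 9 chitinase-like genes 3 were tested: Ctbs (-0.50) fell with Chil3, and Chid1 (0.32) rose (median -0.39). Among transferrins and lipocalins 3 of 16 were tested, and Trf, transferrin, fell by 0.27 as Ltf fell and Lcn2 rose (median -0.27).

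Markers of the sorted cells and of other cell types were read in the same libraries. Their counts, here and in the next paragraph, stand beside 25.8% higher and 28.9% lower of all genes tested. The stem cell genes Kit (94.8 to 97.8 FPKM in IR, 95.5 to 98.5 FPKM in Ctrl), Procr, Mecom and Hlf were present, and of 10 listed 3 were called higher and 4 lower among 9 tested, with summed levels of 353 to 369 FPKM in IR and 422.5 to 433.5 FPKM in Ctrl. Of 9 surface and secreted markers of neutrophils 5 were tested, with 1 higher and 2 lower, and their sum was 64.75 to 67.4 FPKM in IR and 67.5 to 69.3 FPKM in Ctrl, mostly from Csf3r, which progenitors also carry. Ly6g, the defining antigen of mature mouse neutrophils, was listed at 0 in all IR libraries and at no more than 0.148 FPKM in Ctrl libraries. Fpr1 was at no more than 0.0465 FPKM and Mmp25 at no more than 0.0361 FPKM in any library. Other markers of the list were present: Cxcr2, a chemokine receptor, had 6.86 to 7.36 FPKM in IR and 6.90 to 7.77 FPKM in Ctrl, Trem1 4.96 to 5.56 FPKM in IR and 4.78 to 6.19 FPKM in Ctrl, and Itgam 6.455 to 7.21 FPKM in IR and 13.4 to 13.7 FPKM in Ctrl. Cd177 had 0.203 to 0.345 FPKM in IR and 0.303 to 0.537 FPKM in Ctrl. Of 12 monocyte and macrophage markers 8 were tested, with 0 higher and 6 lower, a sum of 227 to 241 FPKM in IR and 245 to 252 FPKM in Ctrl, and Marco at 0 throughout. Among the 6, Adgre1 passed the filter through its control libraries alone and so could only differ downwards. The fall of the monocyte and macrophage markers ran beside that of Chil3, which macrophages also express, and their part in it was not tested.

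Of 12 eosinophil, basophil and mast cell markers 11 were tested, with 4 higher and 7 lower (sums of 432 to 439 FPKM in IR and 429 to 430 FPKM in Ctrl). Members of this list moved in opposite directions, given here as log2 fold changes and named after their values were seen. The eosinophil granule genes Prg2 (-1.11), Epx (-1.09), Ear1 (-0.84), Ear2 (-1.29) and Ear6 (-1.42), of which the Ear genes can share reads, all fell, as did the surface lectin Siglecf by 0.15 and the basophil protease gene Prss34 by 0.25. The mast cell and basophil genes Fcer1a (1.26), Cpa3 (0.29), Gata2 (0.26) and Mcpt8 (0.13) rose. Of 8 B-cell markers 4 were tested, with 1 higher and 3 lower (59.1 to 59.9 FPKM in IR, 78.4 to 85.8 FPKM in Ctrl), and of 8 T and NK markers 3 were tested, with 1 higher and 2 lower (647 to 655 FPKM in IR, 528 to 552 FPKM in Ctrl, nearly all Nkg7) and Cd3g at 0. Among these 2, Cd4 passed the filter through its control libraries alone and so could only differ downwards. Erythroid markers rose in 4 and fell in 2 of 6 tested of 8 (98.7 to 104.8 FPKM in IR, 70.6 to 76.8 FPKM in Ctrl), and megakaryocyte markers rose in 5 and fell in 1 of 7 tested of 8 (187.5 to 201 FPKM in IR, 153 to 156 FPKM in Ctrl). Of 8 stromal and endothelial markers 4 were tested and all 4 fell (54.6 to 57.3 FPKM in IR, 69.3 to 72.3 FPKM in Ctrl). The part of these cell types in the levels of the late granule genes was not tested.

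Over the 6 libraries, the genes whose log2(FPKM + 1) followed most closely the mean of the 8 tested late granule genes were Ndn, Zfp763, Ctsa, Tcp11l2 and Rala. Their Pearson correlations were 0.997 to 0.999 over 6 libraries, which share the split into IR and Ctrl and so set most of each value. Ndn had 1.07, 1.43 and 1.31 FPKM in IR libraries, against 2.95, 3.31 and 2.77 FPKM in Ctrl libraries. In IR library 1 the late granule genes deviated from their group means in both directions. There S100a9 lay 30.7% and Camp 17.4% under the mean, while S100a8 lay 8.2% and Chil3 6.1% above it. Ngp, Ltf, Lcn2 and Wfdc21 also lay under it, by smaller amounts. In IR library 2 the tested genes other than Camp and S100a8 lay above their IR means. In Ctrl library 2 all of the 10 genes but Ltf, at -5.6%, lay above their Ctrl means.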

How the data were processed

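RNA from sorted HSCs of 3 irradiated and 3 control libraries was purified and made into strand-specific poly(A) libraries, per the labels' protocols. The deposited values are FPKM, 1 per gene symbol and library, a unit inferred from the values and the tools; per the submitters' processing notes the authors used fastp, HISAT2 and StringTie on GRCm38 (mm10), with versions, annotation, settings and strand use not given in the sources used here. Of 21878 entries 27 carried a date in place of a symbol and were left out. No exon of another GENCODE M21 gene overlaps the 10 genes.

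Steps between low FPKM values in genes with 1 annotated transcript correspond to about 14350000 to 16270000 fragments per library; 24.3% to 30.2% of low values lay within 0.01 of a whole multiple, too few to recover reads. Intervals for counting error are therefore not given, and fragments per gene, from the longest transcript, are approximate. Libraries of a group differed by 1.25 to 1.67 times counting noise (ratio of the median chi-square to that of pure counting, 6 pairs), and each was counted as 1 sample. Pearson correlations across genes were 0.998 to 0.999 within groups and 0.990 between them.

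Differences were tested with limma 3.58.1 in R 4.3.3 on log2(FPKM + 1), with a mean-variance trend and group as the only term (2-sided), for genes at 1 FPKM or more in at least 3 libraries. The procedure was run on simulated data in which far fewer genes changed than were called here. Its error rate in the present setting was therefore not checked. The 10 genes, the lists and the tests were chosen with earlier results of these data known. Named are the 10 genes, the 4 genes of smallest p in each related list, fixed regulators and primary granule genes, and tested members of 4 families; others are said to be named after their values were seen. A further gene was left out of the neutrophil marker list and is not reported here. Alternatives were 2 pseudocounts, 2 filters, 2 scalings, no trend, a replicate block and each library left out.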

Additional observations from a re-analysis of the deposited data

How the results depend on the processing

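The 7 calls among the late granule genes kept their direction and their side of the threshold in every alternative in which the gene was tested. The log2 fold change ranged from -1.60 to -0.83 for Ngp, -1.23 to -0.53 for Camp, -1.14 to -0.79 for S100a9, -0.995 to -0.19 for Ltf, -0.56 to -0.16 for Chil3, -0.52 to -0.43 for S100a8 and 0.61 to 0.81 for Lcn2, with pseudocounts of 0.1 and 5 FPKM giving the extremes for Ngp, Camp, Ltf and Chil3. With a filter of 5 FPKM 5 of the 10 genes were tested and 3 were called lower, since Camp, Ltf and Chil3 were no longer tested; Ngp passed this filter through its control libraries alone and could only differ downwards there. Ltf was not tested when any control library was left out. Wfdc21 changed sign to 0.0369 without control replicate 1 and was not called in any alternative. With each library left out in turn 5 to 6 late granule genes were called lower and 1 higher. Same-numbered libraries did not deviate together (correlations of 0.0085, -0.03 and -0.05), and for 1 of 3 numbers the IR library correlated best with its own number; with a replicate block 2539 genes were called higher and 2840 lower of 10281, and 1 and 6 of the late granule genes, as without it. Scaling moved the median of all genes by under 0.1. Depth limits Mmp9 and Mmp8, which rest on no more than 19.6 and 36.6 fragments in any library.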
